A study of Mus musculus with 2 samples.

Results

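Among the immune cells of the mouse dorsal root ganglion (DRG), 116 cells were neutrophils of a late stage marked by Asprv1 and Acod1, out of 481, 772 and 1415 deposited cells of 3 male mice. They were chosen by their own counts of unique molecular identifiers (UMIs, 1 per captured transcript). A cell counted as a neutrophil when S100a8 and S100a9 made up at least 5% of its UMIs. It counted as past the precursor stage when Fcnb, Elane, Prtn3, Ms4a3 and Cebpe together held fewer than 5 UMIs. Of 560 cells in the neutrophil gate, 114 were precursors. A cell was then called late when its mean log-scaled level of Asprv1, Acod1, Stfa2l1 and Hcar2 was above that of Ly6g, Mmp8, Ltf and Camp. It was called Ly6g-side in the opposite case, which held for 320 cells, and 10 ties were left out. These genes therefore differ between the stages by construction, and their values are given as a description only.

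All mice were wild-type, naive (untreated) BALB/cAnNRj animals at least 7 weeks old. Cervical, thoracic and lumbar DRG, 40 on average, were pooled and digested for 40 minutes, and live CD45+ cells (positive for the pan-leukocyte antigen and negative for DAPI) were sorted. Oligonucleotide-tagged hashtag antibodies marked cells of 3 male and 3 female mice, which shared a single lane of the 10x 3′ v3 assay. The deposited cells carried a male hashtag (mice 1, 2 and 3), and 1073 further cells of the larger deposited matrix carried a female hashtag (mice 4, 5 and 6). The same gates in the female mice found 21 late and 85 Ly6g-side neutrophils, cells that the rule had not been written on. Each hashtag was taken as 1 mouse. Both deposited matrices hold the same male cells, which were counted once.

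Neutrophils are short-lived granulocytes that mature in the bone marrow in a fixed order. Precursors make the proteases of the primary granules, then the proteins of the specific and gelatinase granules, and mature cells stop making granule proteins and gain receptors for chemokines and for G-CSF. Mature neutrophils answer microbial products and cytokines by way of NF-kB, which switches on IL-1β, chemokines and its own inhibitors. Their transcripts are few, so each cell gives less RNA than a macrophage or a monocyte.

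Among the markers given with the label, the rule scored Asprv1, Acod1, Hcar2 and Stfa2l1. Their higher level in late than in Ly6g-side cells follows from the rule and is a description. Asprv1 (a retroviral-like aspartic protease best known from skin, chr6:86628164-86629710 on GRCm38) had 935, 320 and 1509 CPM in late cells of mice 1, 2 and 3. Levels are given on the usual CPM scale, as the UMIs of a gene relative to all UMIs of a gate in a mouse, here without further scaling. In Ly6g-side cells Asprv1 had 117, 44.5 and 185 CPM, and in precursors it was at 0 in mice 1 and 2 and at 10.5 CPM in mouse 3. Mouse 2 was the lowest of the 3 mice in both stages past the precursors. Acod1 (chr14:103046977-103056573), whose enzyme makes itaconate, had 826, 1902 and 1136 CPM in late cells and 61.9 to 109 CPM in Ly6g-side cells. Hcar2, the receptor of β-hydroxybutyrate and niacin, had 1345 ± 150 CPM in late cells (SD, n = 3) and 111 ± 50.4 CPM in Ly6g-side cells. Stfa2l1, a stefin-type protease inhibitor, had 1101 ± 258 against 217 ± 39.4 CPM.

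The 3 markers that the rule did not score followed the same order, as a description. Clec4d, a C-type lectin receptor for fungal and mycobacterial glycolipids, had 971 ± 63.8 CPM in late cells and 169 ± 41.0 CPM in Ly6g-side cells. Cxcr2, the receptor that draws neutrophils to CXCL1 and CXCL2, had 716 ± 77.0 against 256 ± 24.0 CPM. Il1f9, the cytokine IL-36γ, had 580 ± 44.2 against 159 ± 23.2 CPM. For each of the 7 markers the late cells held the highest mean of all 7 gates, and in each case every late value was above every value of the other gates. For the scored markers the rule itself set this order against Ly6g-side cells. Among the monocyte, macrophage, B cell and T and NK cell gates, only Hcar2 and Clec4d had means over 10 CPM. These were in cells of the monocyte gate (43.1 and 58.4 CPM) and, for Hcar2, of the macrophage gate (14.8 CPM). The 267 male cells that fell in no single gate were not compared.

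**Figure D1:**
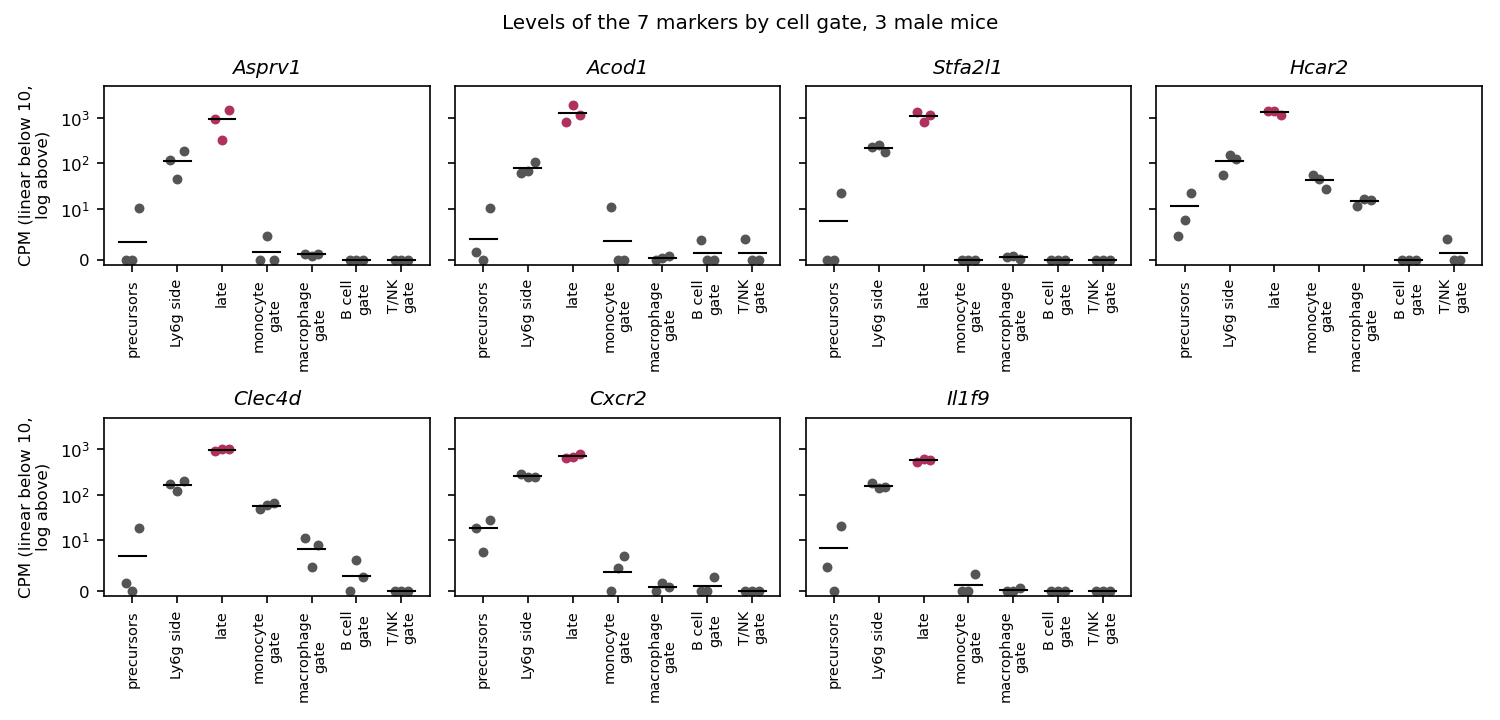
Levels of the 7 markers in CPM (linear below 10, logarithmic above) in cells of each gate, with 1 point per male mouse and a line at the mean of the 3 mice. The late cells, in red, lie above every other gate in each panel, and Asprv1 spreads most between the mice (320 to 1509 CPM). The rule set this order against Ly6g-side cells for Asprv1, Acod1, Stfa2l1 and Hcar2.

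Within the late cells the defining genes were unevenly held. Of the 116 cells, 10 had UMIs of 1 of the 4 late-side genes, 44 of 2 of them, 43 of 3 and 19 of all 4. Asprv1 itself was found in 49.1% of late cells, Stfa2l1 in 59.5%, Acod1 in 72.4% and Hcar2 in 80.2%. Clec4d, which the rule did not score, was found in 88.8%, more widely than any of the 4. For comparison with free RNA in the lane, Asprv1 had a UMI in 0 of 163 cells of the B cell gate, and Acod1 in 0.613%. Counting error allows a share of up to 1.84% of B cells with a UMI of Asprv1. That limit covers detection at this depth and not expression. Median depth was 2902.5 UMIs in late cells and 3404 UMIs in B cells. Of the 116 late cells, 59 had no UMI of Asprv1. The rule scored these genes, so their shares in late cells are a description.

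The rule cuts a continuous range. The difference between the 2 mean scores was 0.0147 in the late cell nearest to the cut and -0.0222 in the nearest Ly6g-side cell, with medians of 0.956 and -2.58. Of the late cells, 34 lay within 0.5 of the cut, as did 49 Ly6g-side cells. The S100a8 and S100a9 share ran from 5.80% to 38.5% of UMIs in late cells, with a median of 18.9% against 38.6% in Ly6g-side cells, and 17 late cells were between 5% and 10%. A further 9 cells had shares between 3% and 5% and fell outside the gate.

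Markers of other cell types were low in the late cells, though not absent. All 5 eosinophil markers, all 6 markers of basophils and mast cells and all 3 platelet markers were at 0. The 8 macrophage markers were all detected and summed to 352, 539 and 998 CPM in mice 1, 2 and 3, led by C1qa with 89 UMIs, against 160, 533 and 705 CPM in Ly6g-side cells and 20684 CPM in the macrophage gate. C1qa, C1qb and C1qc together reached 3 UMIs in 6 late cells. The 5 monocyte markers summed to 316 CPM, led by Csf1r with 45 UMIs, against 732 CPM in Ly6g-side cells. Csf1r itself was higher in late cells in each of the 3 male mice, although the groups overlapped. Ly6c2 and Plac8 were lower in each of them. The 6 B cell markers summed to 98.1 CPM, led by Ighm with 30 UMIs, against 31.6 CPM in Ly6g-side cells, with Cd79a and Cd79b at 0. Of 6 T and NK cell markers, Cd3e, Cd3g, Nkg7 and Trbc2 were at 0 and Cd3d had 38 UMIs, and their sum was 106 CPM against 435 CPM in Ly6g-side cells. DC, erythroid, glial and fibroblast markers summed to 10.9, 38.1, 21.8 and 19.1 CPM, against 2.08, 7.47, 4.98 and 5.40 CPM in Ly6g-side cells, the erythroid UMIs almost wholly in mouse 2 (219 CPM). The part of these cell types in the results below was not tested, beyond leaving out the cells with 3 or more C1q UMIs.

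Late cells made up a similar share of the neutrophils past the precursor stage in each male mouse. They were 26 of 96 late and Ly6g-side cells in mouse 1 (27.1%, exact Clopper-Pearson 95% interval 18.5% to 37.1%), 22 of 75 in mouse 2 (29.3%, 19.4% to 41.0%) and 68 of 265 in mouse 3 (25.7%, 20.5% to 31.4%). Of all deposited cells of a mouse they were 5.41%, 2.85% and 4.81%. In the female mice they were 8 of 41 (19.5%), 11 of 35 (31.4%) and only 2 of 30 (6.67%) in mice 4, 5 and 6. The male mean of 27.4% ± 1.85 and the female mean of 19.2% ± 12.4 (SD, n = 3 each) differed by 8.16 percentage points. This was within the spread of the female mice (exact permutation test, 2-sided, p = 0.4, with 0.1 the smallest p that 3 against 3 mice allow). Intervals cover counting error only.

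**Figure D2:**
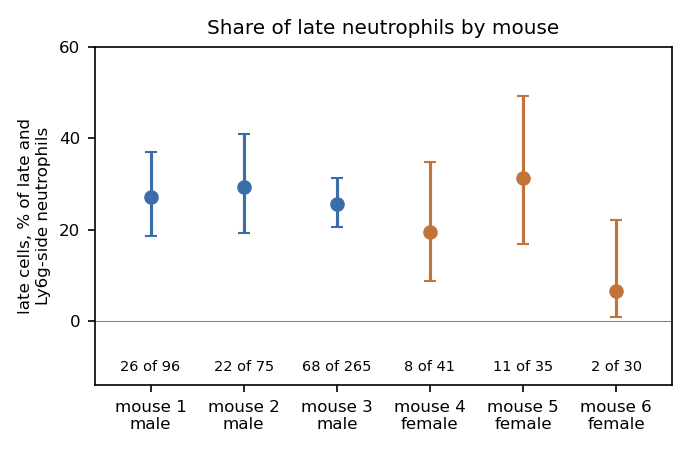
Late cells as a percentage of late and Ly6g-side neutrophils in each mouse (blue male, orange female), with exact 95% Clopper-Pearson intervals and the counts of cells below. The male mice lie between 25.7% and 29.3%, and mouse 6, with 2 late cells, is the lowest at 6.67%.

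Late cells held less RNA than Ly6g-side cells in every mouse. The median UMI count per cell was 3195, 2776 and 3006 in late cells of mice 1, 2 and 3, and 6199, 5663 and 7695 in their Ly6g-side cells. In mice 4, 5 and 6 it was 3062, 2606 and 1746 against 6079, 7532 and 6035. The groups did not overlap, and late was lower in 6 of 6 mice (mean 2732 against 6534 UMIs). An exact sign-flip permutation test over the 6 mice, 2-sided, gave p = 0.031, the smallest it can give, which became 0.0521 after Benjamini-Hochberg adjustment over 5 measures and so missed the threshold of 0.05. Genes per cell were also lower in 6 of 6 mice (862 against 1329, adjusted p = 0.0521 in the same exact test). Once each cell was thinned to 1000 UMIs there were 441 genes in late and 350 in Ly6g-side cells, a measure chosen after seeing the data. S100a8 and S100a9, which the rule used, took a median of 18.9% of UMIs in late and 38.6% in Ly6g-side male cells, and the counts of genes are given as a description. Hashtag UMIs per cell were higher in late cells in 6 of 6 mice (mean of medians 447 against 374, adjusted p = 0.0521), but the difference turned to -365 with means per mouse in place of medians. The mitochondrial and ribosomal protein shares of UMIs did not pass the test either (adjusted exact p = 0.375 and 0.117). Depth differed between the stages in every comparison below. Thinning each cell to 1000 UMIs is given as an alternative. It evened the cells but not the sums, as mouse 6 kept 1 late cell against 28 Ly6g-side cells. The part of depth was therefore not isolated.

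For gene levels, UMIs were summed per mouse and stage, which gave 59410 to 225356 UMIs per late sum in male mice and 3491 to 27559 in female mice. The male sums held the contrast that chose the genes of the rule. Their values and the counts of genes past the threshold are therefore given as a description, without adjusted p-values of single genes. They served to choose named genes and to compare directions with the female mice. Of 2356 male genes that passed the filter on low counts, 374 (15.9%) were past an adjusted p of 0.05 in edgeR as higher and 376 (16.0%) as lower in late cells. The female mice were tested in their place. There 919 genes passed the filter, of which 111 (12.1%) were higher and 91 (9.90%) lower in late cells (edgeR quasi-likelihood test, Benjamini-Hochberg adjusted p under 0.05). Whether called or not, 159 of the 919 genes (17.3%) were higher and 220 (23.9%) lower in late cells without overlap of the groups. Lack of overlap, given for single genes below, was therefore common. The same gate was applied to the female cells, so genes that vary with the scoring genes can differ through the gate alone. Mouse 6 gave 2 late cells, in which 1 UMI amounted to 172 normalized CPM, and values of 0 there carry little weight. A gene passed the filter when 3 sums reached 105 CPM, so a gene low in one stage could pass through the other stage alone, where it had to differ. Of the 111 genes that were higher, 63 would have passed in the Ly6g-side sums alone, and of the 91 that were lower 23 would have passed in the late sums alone. The counts over the lists below are therefore descriptions. Mouse 5 gave 11 of the 21 late cells, and without it 42 genes were higher and 31 lower. With library sizes that left out the genes of the rule the split was 79 higher and 161 lower, as the median log2 fold change of all tested genes moved from -0.13 to -0.41.

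The log2 fold changes of the sexes followed each other. All 111 genes higher and all 91 genes lower in female late cells had the same direction in the male sums, 107 of the 111 and 88 of the 91 in each of the 3 male mice. Over all 919 genes 82.5% had the same direction in both sexes. The Pearson correlation across genes was 0.879, a description, since genes are not independent replicates and the same gate was used in both. A direct test of the interaction of stage and sex in edgeR called 0 of 2086 genes (0.00%), with 117 at an unadjusted p under 0.05. With the mouse as a block it also called 0, with 100 at an unadjusted p under 0.05.

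**Figure D3:**
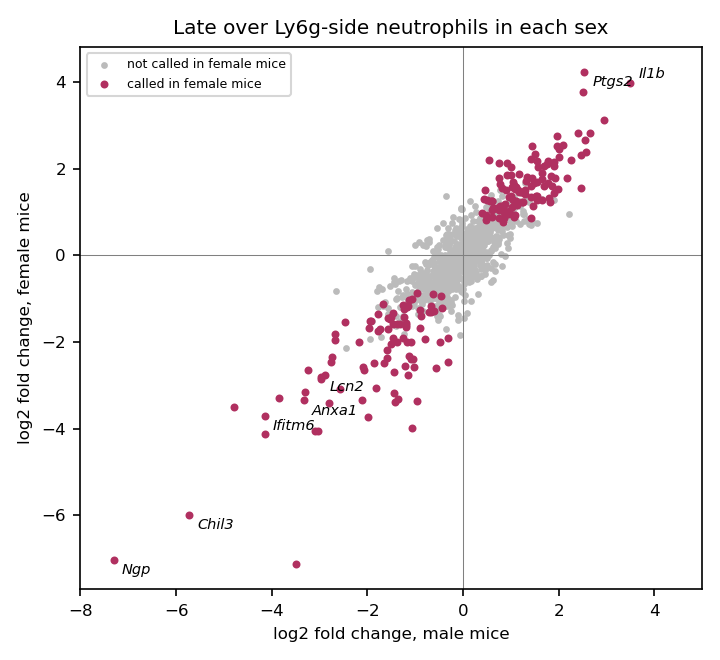
Log2 fold change of late over Ly6g-side neutrophils for the 919 genes tested in female mice, male mice on the horizontal axis and female mice on the vertical axis, with the genes called in female mice in red. Every red point has the same direction in both sexes, and Ngp and Il1b are near the ends (-7.30 and -7.03, 3.50 and 3.99).

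Il1b and Cxcl2 were among the cytokine and chemokine genes that were higher in late cells. Of 25 listed genes 9 passed the filter in female mice, and 6 of them rose in late cells and 0 fell, against 12.1% and 9.90% of all tested genes. The median log2 fold change of the 9 was 1.82, against -0.13 over all genes tested. CPM are from here on normalized for library composition (TMM) unless called unscaled. Il1b, which encodes the inflammatory cytokine IL-1β (chr2:129364570-129371139), had 4899, 3952 and 10497 CPM in late cells of mice 4, 5 and 6 and 548, 278 and 272 CPM in their Ly6g-side cells. Every late value was over every Ly6g-side value. Il1b rose by 3.99 ± 0.37 on the log2 scale (adjusted p = 1.15e-08). The male late cells had 5804, 4421 and 5339 CPM against 328, 534 and 512 CPM (log2 fold change 3.50 ± 0.18). Cxcl2, which encodes a CXCR2 ligand that recruits neutrophils, had 10653, 11490 and 25813 CPM in late cells of mice 4, 5 and 6 and 3057, 2793 and 2186 CPM in Ly6g-side cells. It too did not overlap, and rose by 2.53 ± 0.39 on the log2 scale (adjusted p = 3.11e-05). Ptgs2, the inducible cyclooxygenase of prostaglandin synthesis, was rare, with 16 UMIs in the female late cells and 6 in the Ly6g-side cells, and would not have passed the filter in the Ly6g-side sums alone. Its log2 fold change was 4.25 ± 0.75, and without the filter its adjusted p was 0.000101. The calls of Il1b and Cxcl2 held in each alternative in which they were tested. Of the 6 genes, Il1rn and Tnf would not have passed the filter in the Ly6g-side sums alone either. Nor would Osm, Cxcl1 and Ccl3, which were tested and not called. The counts and the median of this list are therefore a description. Ccl6, Tnf and Il1rn, the natural antagonist of IL-1, made up the other genes that rose (1.82, 2.06 and 1.52). Their calls were lost for Ccl6 (adjusted p 0.0806 without the filter, 0.121 with thinned cells), Tnf (adjusted p 0.117 without the filter) and Il1rn (adjusted p 0.222, 0.0768 and 0.0716 leaving out mouse 4, 5 and 6). Of 78 named genes called in female mice, 36 lost the call without the filter on low counts and 20 with DESeq2, and 17 of the 41 that were tested in thinned cells lost it there. Without the filter the adjusted p of Il1rn was 0.522. With DESeq2 the adjusted p of Il1rn was 0.0674.

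Between gates, Il1b and Cxcl2 differed in where they peaked. In unscaled CPM of the male mice Il1b was highest in late cells (6106 ± 737, SD, n = 3), above the macrophage gate (3086 ± 248), the monocyte gate (564 ± 255) and Ly6g-side cells (391 ± 109). Every late value was above every macrophage value. Cxcl2 was highest in the macrophage gate (20119 ± 1397) and second in late cells (14154 ± 2937), again with no overlap. Il1b was found in 94.8% of late and 49.7% of Ly6g-side cells, against 23.3% of cells of the B cell gate. Over single cells the median was 45.0 Il1b UMIs per 10000 in late cells, with quartiles at 18.2 and 96.2, and 0 in Ly6g-side cells.

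Several listed genes of the NF-kB pathway were higher as well. Of 22 listed genes 7 passed the filter in female mice, of which 6 rose and 0 fell, against 12.1% and 9.90% of all tested genes (median log2 fold change 1.85). Nfkbia, the inhibitor IκBα that NF-kB itself induces, had 6843, 5579 and 8776 CPM in late cells of mice 4, 5 and 6 and 2076, 1472 and 1083 CPM in Ly6g-side cells. The late cells lay above without overlap and Nfkbia rose by 2.15 ± 0.32 on the log2 scale (adjusted p = 2.25e-05). In male mice it had 7200 ± 192 unscaled CPM in late cells and 2443 ± 308 in the macrophage gate. Tnfaip3, the deubiquitinase A20 that ends NF-kB signalling, rose by 2.47 ± 0.44 on the log2 scale (adjusted p = 0.000183) and Ier3 rose by 1.85 ± 0.32 on the log2 scale (adjusted p = 0.000107). These 3 calls held in each alternative in which they were tested. Tnfaip3, Zc3h12a and the uncalled Rel would not have passed the filter in the Ly6g-side sums alone. Without the filter the adjusted p of Tnfaip3 was 0.0117. Nfkbiz, Tnfaip2 and Zc3h12a, an RNase that cuts cytokine transcripts, rose by 1.68, 1.36 and 2.23. Their calls were lost for Nfkbiz (adjusted p 0.127 without the filter, 0.728 with thinned cells), Tnfaip2 (adjusted p 0.32 leaving out mouse 5) and Zc3h12a (adjusted p 0.0655 leaving out mouse 6). Rel, a subunit of NF-kB, had 0.67 ± 0.56 (adjusted p = 0.433) on the log2 scale. With no filter on low counts, the adjusted p of Tnfaip2 and Zc3h12a was 0.475 and 0.208. With thinned cells the adjusted p of Tnfaip2 was 0.134. With DESeq2 the adjusted p of Tnfaip2 was 0.0599.

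Since these genes moved together, the 250 bases before each gene's start (RefSeq, GRCm38.p6) were searched on both strands for a kB motif, the letters GGG, any 2 bases and TTTCC. They were found in 1.40% of 27025 promoters, in 3.38% of the 711 matched promoters of genes tested in female mice, in 6 of 92 matched promoters (6.52%) of genes that rose and in 3 of 71 (4.23%) of genes that fell. A C/EBP motif, the letters TTNNGNAAT, was searched as well. It was in 10.3% of all promoters, in 8.02% of those of tested genes, in 9.78% of those of genes that rose and in 11.3% of those of genes that fell. The 6 with the kB motif were those of Cxcl2, Dusp5, Mcl1, Neurl3, Nfkbia and Tnfaip3, and the 3 those of Olfm4, Pglyrp1 and Vim. A match describes letters and is no evidence of binding. The promoters of Nfkbia and Cxcl2, abundant members of their lists, are shown from 5′ to 3′ on the strand of the gene, with the matches in capitals. They were chosen after their matches had been seen. That of Nfkbia (chr12:55492648-55492897, minus strand) has 1 match, which begins 29 bases before the start. That of Cxcl2 (chr5:90903649-90903870, plus strand) has 2, which begin 97 and 78 bases before the RefSeq start, and is shown up to the first base of the GENCODE gene.
Nfkbia: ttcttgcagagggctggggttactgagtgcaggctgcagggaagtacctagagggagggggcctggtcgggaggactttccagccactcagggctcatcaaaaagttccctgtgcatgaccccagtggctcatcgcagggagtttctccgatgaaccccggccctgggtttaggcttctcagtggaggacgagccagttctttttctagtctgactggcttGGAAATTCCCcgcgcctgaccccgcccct
Cxcl2: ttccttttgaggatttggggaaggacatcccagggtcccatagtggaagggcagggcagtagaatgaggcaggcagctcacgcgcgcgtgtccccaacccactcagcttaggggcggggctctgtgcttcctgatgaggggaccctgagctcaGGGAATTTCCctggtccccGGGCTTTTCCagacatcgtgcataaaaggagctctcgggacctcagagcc

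Among receptors, Ccrl2 and Csf3r were higher in late cells. Of 29 listed chemokine and cytokine receptors 11 passed the filter in female mice, of which 4 rose and 1 fell, against 12.1% and 9.90% of all tested genes. Ccrl2, an atypical receptor that presents chemerin, had 3927, 2690 and 4474 CPM in late cells of mice 4, 5 and 6 against 819, 405 and 259.8 CPM, without overlap. Ccrl2 rose by 2.82 ± 0.34 on the log2 scale (adjusted p = 1.31e-06), past the threshold in each alternative in which it was tested. Csf3r, the G-CSF receptor, had 661, 664 and 172 CPM against 306, 203 and 209 CPM, and the groups overlapped through mouse 6. Csf3r rose by 1.32 ± 0.35 on the log2 scale (adjusted p = 0.00771), with adjusted p 0.0572 and 0.232 leaving out mouse 4 and 5. In male late cells it had 822, 867 and 922 CPM against 283, 265 and 213 CPM. Il1r2, the IL-1 decoy receptor, rose by 1.13 ± 0.35 on the log2 scale (adjusted p = 0.0213), with adjusted p 0.448 and 0.19 leaving out mouse 4 and 6, 0.0844 with the mouse as a block. Ccr1, a receptor of inflammatory CC chemokines, rose by 1.21 ± 0.29 on the log2 scale (adjusted p = 0.00319), with adjusted p 0.0872 leaving out mouse 4. Ltb4r1, the receptor of leukotriene B4, which passed the filter only through the Ly6g-side sums, fell by 2.45 on the log2 scale (SE 0.57, adjusted p = 0.00296), with adjusted p 0.07 leaving out mouse 5. Cxcr4, which holds neutrophils in the bone marrow, had 0.04 ± 0.53 (adjusted p = 0.963) in female mice and 0.80 ± 0.25 in male mice. Without the filter the adjusted p of Csf3r, Il1r2 and Ccr1 was 0.536, 0.652 and 0.6. In thinned cells the adjusted p of Csf3r, Il1r2 and Ccr1 was 0.181, 0.299 and 0.126. With DESeq2 the adjusted p of Csf3r and Il1r2 was 0.0732 and 0.213.

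Of 40 listed pattern recognition receptors 12 passed the filter in female mice, of which 5 rose (Clec4e, Nlrp3, Trem1, Tlr2 and Cd300lf) and Trem3 fell, against 12.1% and 9.90% of all tested genes. None of these 6 calls held in every alternative, and Nlrp3, Tlr2 and Cd300lf depended on the late sums to pass the filter and Trem3 on the Ly6g-side sums. Cd300lf, at adjusted p = 0.0491, had 0.151, 0.185 and 0.208 leaving out mouse 4, 5 and 6 and 0.126 with the mouse as a block, and Trem3 had 0.0586 leaving out mouse 5. Clec4e, the receptor Mincle, rose by 1.41 ± 0.26 on the log2 scale (adjusted p = 0.000282), with adjusted p 0.0758 leaving out mouse 5. Nlrp3, the inflammasome sensor that leads to IL-1β cleavage, had 389, 299 and 860.4 CPM in late cells of mice 4, 5 and 6 against 104, 120.1 and 120.4 CPM, without overlap. Nlrp3 rose by 1.78 ± 0.43 on the log2 scale (adjusted p = 0.00339), with adjusted p 0.229 without the filter. Trem1, an amplifier of inflammatory signalling, rose by 1.22 ± 0.32 on the log2 scale (adjusted p = 0.00704), with adjusted p 0.306 leaving out mouse 5, 0.0607 with the mouse as a block. Tlr2, the receptor of bacterial lipopeptides, rose by 1.24 ± 0.42 on the log2 scale (adjusted p = 0.0325), with adjusted p 0.152, 0.0554 and 0.196 leaving out mouse 4, 5 and 6, 0.0607 with the mouse as a block. With no filter on low counts, the adjusted p of Clec4e, Trem1, Tlr2 and Cd300lf was 0.394, 0.599, 0.652 and 0.753. With thinned cells the adjusted p of Clec4e and Trem1 was 0.0815 and 0.085. With DESeq2 the adjusted p of Trem1, Tlr2 and Cd300lf was 0.126, 0.123 and 0.158.

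Survival genes were few. Of 26 listed genes 4 passed the filter in female mice and 3 rose, against 12.1% of all tested genes. Pim1, a survival kinase, had 933, 565 and 2065 CPM in late cells against 173, 135 and 69.7 CPM, without overlap, and rose by 2.83 ± 0.41 on the log2 scale (adjusted p = 1.65e-05). Gadd45b, a stress-response gene, rose by 2.39 ± 0.36 on the log2 scale (adjusted p = 2.95e-05), and both calls held in each alternative in which they were tested. Pim1 and Gadd45b depended on the late sums to pass the filter, and without the filter their adjusted p was 1.39e-05 and 0.000519. Mcl1, on which neutrophil survival depends, rose by 1.29 ± 0.27 on the log2 scale (adjusted p = 0.00125), with adjusted p 0.249 leaving out mouse 5. Slc7a11, the cystine transporter of glutathione synthesis, rose by 2.76 ± 0.41 on the log2 scale (adjusted p = 2.95e-05). Slc16a3, a lactate exporter, rose by 2.13 ± 0.33 on the log2 scale (adjusted p = 3.34e-05), and both held in each alternative in which they were tested. Slc7a11 likewise depended on the late sums, and without the filter its adjusted p was 0.0003. Without the filter the adjusted p of Mcl1 was 0.552. In thinned cells the adjusted p of Mcl1 was 0.258.

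Genes that tissue digestion itself can induce were higher together with the inflammatory genes. Of 33 listed immediate early and dissociation genes 21 passed the filter in female mice, and 15 rose and 0 fell, against 12.1% and 9.90% of all tested genes (median log2 fold change 1.31), among them Nfkbia, Ier3 and Gadd45b from above. Of the 15 calls 6 held in every alternative in which they were tested, 9 were lost without the filter and 7 leaving out mouse 5. Those lost leaving out mouse 5 include Fos (adjusted p 0.25), Ier2 (adjusted p 0.514), Ier5 (adjusted p 0.433), Klf6 (adjusted p 0.194), Btg1 (adjusted p 0.0554) and Jund (adjusted p 0.951). Junb, an AP-1 subunit, had 2566, 2258 and 6539 CPM in late cells of mice 4, 5 and 6 against 848, 691 and 697 CPM and rose by 2.12 ± 0.32 on the log2 scale (adjusted p = 3.11e-05). Dusp1, a phosphatase that ends MAP kinase signalling, rose by 2.19 ± 0.31 on the log2 scale (adjusted p = 1.59e-05), and Btg2, an antiproliferative gene, rose by 1.88 ± 0.31 on the log2 scale (adjusted p = 7.14e-05). Hspa8 had -0.02 ± 0.35 (adjusted p = 0.981) and Hsp90ab1 0.31 ± 0.39 (adjusted p = 0.618), both heat shock genes. Per cell the list made up a median of 4.13% of UMIs in male late and 1.23% in Ly6g-side cells, and 3.99% against 1.07% in female mice. The cytokine list made up 2.55% against 0.334% in male and 2.04% against 0.332% in female mice. All cells went through the same digestion, and the part of dissociation in these differences was not tested.

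Several listed granule proteins were lower in late cells. Of 18 genes listed for the specific granules 13 passed the filter in female mice, and 10 fell and 0 rose, against 9.90% and 12.1% of all tested genes (median log2 fold change -2.58). The 10 include Ltb4r1, the leukotriene B4 receptor, which is not a granule protein and is also counted among the receptors above. Ngp, neutrophilic granule protein (chr9:110419747-110423012), had 117, 498 and 344 CPM in late cells of mice 4, 5 and 6 and 36745, 38397 and 50674 CPM in Ly6g-side cells. The groups did not overlap and Ngp fell by 7.03 on the log2 scale (SE 0.64, adjusted p = 1.15e-08). In male mice it had 260.0, 168 and 198 against 35556, 33915 and 29541 CPM. Ngp had a UMI in 42.2% of late and 41.7% of cells of the B cell gate, taken as a measure of free RNA, at 245 ± 52.4 and 125 ± 44.2 unscaled CPM. Lcn2, the siderophore-binding lipocalin, had a UMI in 77.6% of male late and 17.8% of B cells. In female mice it had 4005, 1561 and 172 CPM in late and 15042, 14176 and 17240 CPM in Ly6g-side cells, and fell by 2.80 on the log2 scale (SE 0.47, adjusted p = 7.83e-05). Anxa1, the anti-inflammatory annexin, had 622, 1195 and 0 CPM against 7532, 7276 and 9244 CPM, and fell by 3.35 on the log2 scale (SE 0.42, adjusted p = 2.77e-06). Wfdc21 fell by 2.58 on the log2 scale (SE 0.40, adjusted p = 3.34e-05). Chil3 and Olfm4 fell to 1 and 4 UMIs in female late cells, against 525 and 524 UMIs in Ly6g-side cells (adjusted p = 8.05e-07 and 4.40e-05), too few for a fold. These 6 calls held in each alternative in which they were tested. Of the 10 genes of the list that fell, 4 would have passed the filter in the late sums alone. Anxa1, Wfdc21, Chil3, Olfm4, Cybb and Ltb4r1 would not. Lyz2 and Pglyrp1, antibacterial proteins of the granules, fell by 1.58 and 1.33 (adjusted p = 0.0102 and 0.0047), with adjusted p 0.135 leaving out mouse 5 for Lyz2 and adjusted p 0.127 leaving out mouse 5 for Pglyrp1. Hp, haptoglobin, had -0.20 ± 0.29 (adjusted p = 0.662). Serpinb1a, which inhibits the granule proteases, fell to 3 UMIs against 262 (adjusted p = 0.000759), and Cd177, carried on secondary granules and the surface, fell by 2.65 on the log2 scale (SE 0.44, adjusted p = 7.80e-05), both passing the filter only through the Ly6g-side sums. Retnlg, a gene of mature neutrophils, had -0.97 ± 0.55 (adjusted p = 0.209) and reached 16127 ± 3424 unscaled CPM in male late cells.

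**Figure D4:**
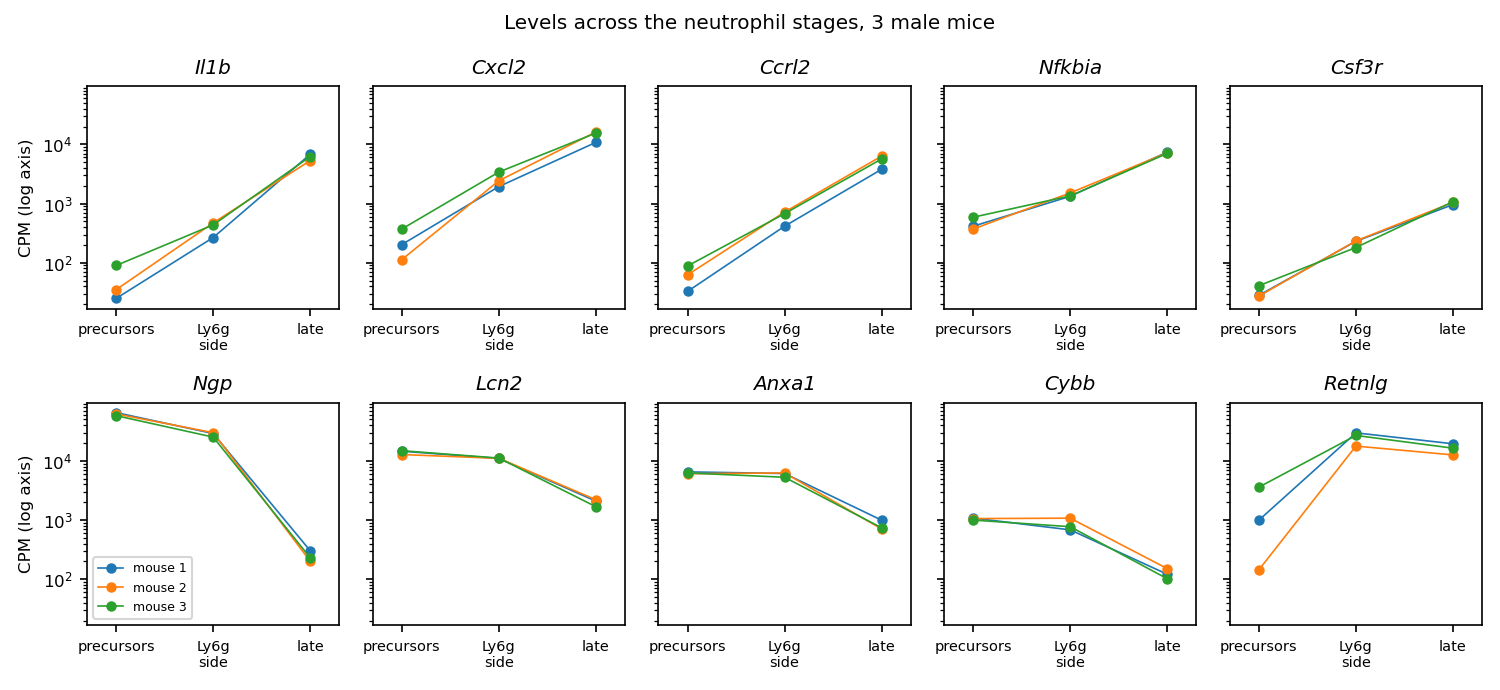
Unscaled CPM (log axis) of 10 genes in precursors, Ly6g-side and late neutrophils of the 3 male mice, 1 line per mouse. Il1b, Cxcl2, Ccrl2, Nfkbia and Csf3r are highest in late cells, Ngp, Lcn2, Anxa1 and Cybb are lowest there, and Retnlg is highest in Ly6g-side cells.

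The NADPH oxidase, which makes superoxide in the phagosome, had 1 of 7 tested genes called in female mice, as lower. This is near the 9.90% of all tested genes, so the count describes Cybb and not the oxidase as a group. Cybb, its catalytic subunit gp91phox, had 117, 199 and 0 CPM in late cells of mice 4, 5 and 6 against 1027, 1291 and 1609 CPM, without overlap. Cybb fell by 3.17 on the log2 scale (SE 0.45, adjusted p = 1.59e-05), which held in each alternative in which it was tested. It would not have passed the filter in the late sums alone. Cyba, its membrane partner, had -0.75 ± 0.32 (adjusted p = 0.0927), but was past the threshold with upper quartile scaling, without the filter and with scaling that left out the rule genes. The cytosolic subunits Ncf1 and Ncf4 had 0.07 ± 0.31 (adjusted p = 0.898) and -0.53 ± 0.33 (adjusted p = 0.272). In unscaled CPM of male mice Cybb had 125 ± 24.9 in late cells, 1045 ± 42.1 in precursors, 979 ± 81.4 in the monocyte gate and 416 ± 18.4 in the macrophage gate. It was found in 26.7% of late cells and 17.8% of B cells.

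Some enzymes of glycolysis, the main energy source of neutrophils, were lower in late cells. Of 24 listed genes 10 passed the filter in female mice, with 4 lower (Ldha, Gapdh, Pgk1 and Gpi1) and the exporter Slc16a3 higher, against 9.90% and 12.1% of all tested genes, and the median log2 fold change was -0.95. Aldoa, Eno1, Pgam1, Pkm and Slc2a3 did not pass the test (adjusted p = 0.115, 0.135, 0.0832, 0.746 and 0.735). Ldha, lactate dehydrogenase A, had 156, 266 and 0 CPM against 594, 668 and 703 CPM. Ldha fell by 1.76 on the log2 scale (SE 0.42, adjusted p = 0.00335), which held in each alternative in which it was tested. Ldha, Pgk1 and Gpi1 entered the test through the Ly6g-side sums, where they are high, and would not have passed in the late sums alone. Gapdh fell by 1.43 on the log2 scale (SE 0.32, adjusted p = 0.0019), with adjusted p 0.0768 leaving out mouse 5. Pgk1 and Gpi1 fell by 1.55 and 1.18, with adjusted p 0.358 and 0.0655 leaving out mouse 5 and 6 for Pgk1 and adjusted p 0.389 leaving out mouse 5 for Gpi1. Among 24 listed iron and redox genes, with 10 tested, Slc7a11, Fth1 and Ftl1 rose and Prdx5 and Lcn2 fell, against 12.1% and 9.90% of all tested genes. Ftl1, the ferritin light chain, had an adjusted p of 0.031, with 0.418 and 0.426 leaving out mouse 4 and 5 and 0.183 with the mouse as a block. Fth1, the ferritin heavy chain, had 18779, 16138 and 23576 CPM in female late cells against 7879, 8094 and 8737 CPM. Fth1 rose by 1.23 ± 0.38 on the log2 scale (adjusted p = 0.0184), with adjusted p 0.296 and 0.344 leaving out mouse 4 and 5, 0.118 with the mouse as a block. Prdx5, a peroxiredoxin, fell by 2.01 on the log2 scale (SE 0.34, adjusted p = 8.62e-05), which held in each alternative in which it was tested. With no filter on low counts, the adjusted p of Fth1 and Ftl1 was 0.763 and 0.763. With thinned cells the adjusted p of Fth1 and Ftl1 was 0.0592 and 0.2.

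**Figure D5:**
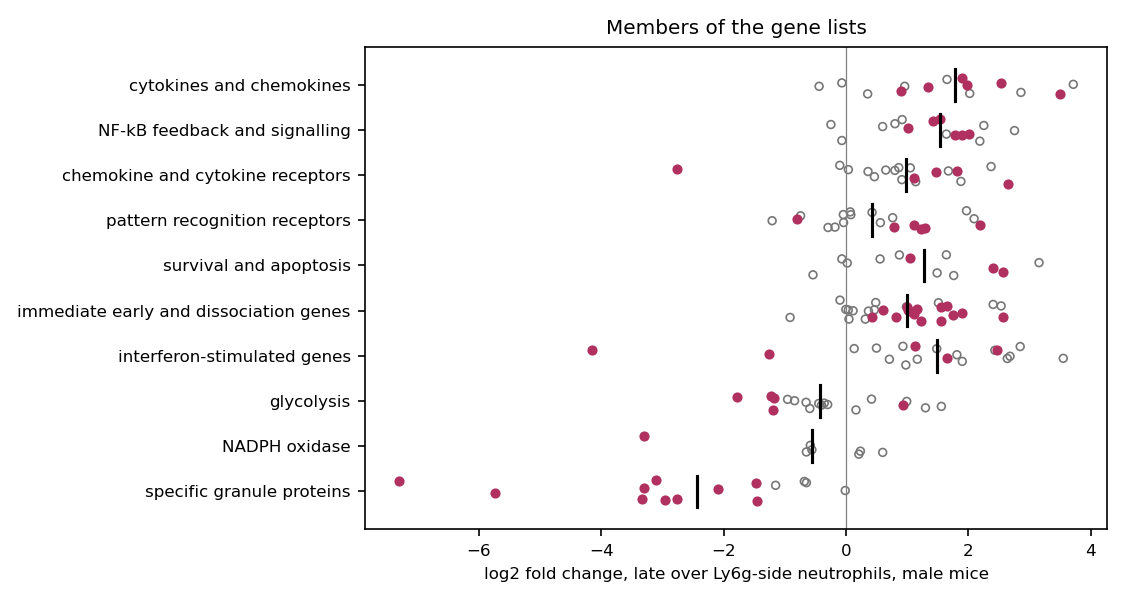
Log2 fold change of late over Ly6g-side neutrophils in the male mice for each gene of 10 lists that passed the filter on low counts, leaving out the genes of the rule and the markers of the label, with the list median as a line. Red points are genes called in the female mice and open points are genes not called or not tested there. The cytokine and NF-kB lists lie mostly right of 0 and the specific granule list left of it.

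UMIs of interferon-stimulated genes were unevenly held, in late and in Ly6g-side cells. Of 41 listed genes 7 passed the filter in female mice, of which 3 were higher and 2 lower, against 12.1% and 9.90% of all tested genes. Isg15, Irf1 and Slfn1 rose (1.56, 1.78 and 1.16, adjusted p = 0.0204, 0.0397 and 0.00705). Isg15 and Irf1 would not have passed the filter in the Ly6g-side sums alone. The calls were lost for Isg15 (adjusted p 0.688 and 0.07 leaving out mouse 5 and 6, 0.0924 with the mouse as a block), Irf1 (adjusted p 0.117, 0.089 and 0.124 leaving out mouse 4, 5 and 6) and Slfn1 (adjusted p 0.0911 and 0.29 leaving out mouse 4 and 5). Ifitm6, a membrane protein that restricts virus entry, fell by 3.70 on the log2 scale (SE 0.42, adjusted p = 4.99e-07), and would not have passed the filter in the late sums alone. Ifitm3, of the same family, fell by 1.15 on the log2 scale (SE 0.32, adjusted p = 0.0105), with adjusted p 0.0818 leaving out mouse 5. Ifitm genes are similar in sequence, so reads may be split between them. In male late cells Isg15 had 385, 616 and 639.8 CPM against 70.8, 67.2 and 133 CPM. A set of 9 interferon-stimulated genes was then counted per cell: Isg15, Rsad2, Oasl1, Ifit1, Ifit2, Ifit3, Ifit3b, Rtp4 and Slfn5. Those that passed the filter in male mice were all higher in late cells there. Ifitm3 and Ifitm6, which were lower in both sexes, were not in the set, so its counts are a description. In the 116 male late cells, 40 had 5 or more UMIs of the set and held 82.9% of these UMIs, while 24 cells had none. Such cells were found in every male mouse, as 7 of 26, 7 of 22 and 26 of 68 late cells. Among 320 Ly6g-side cells, which are deeper, 40 had 5 or more UMIs and held 66.8% of these UMIs, while 167 had none. Per cell, all listed interferon-stimulated genes made up a median of 0.611% of UMIs in male late and 0.488% in male Ly6g-side cells. In female mice the order was reversed, with 0.443% in late and 0.565% in Ly6g-side cells. The difference between the stages was not tested. Without the filter the adjusted p of Isg15, Irf1 and Slfn1 was 0.401, 0.49 and 0.652. In thinned cells the adjusted p of Slfn1 was 0.118. With DESeq2 the adjusted p of Isg15, Irf1 and Slfn1 was 0.189, 0.0788 and 0.0662.

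Genes of other roles gave single differences. Of 41 listed myeloid transcription factors 15 passed the filter in female mice and 7 rose, against 12.1% of all tested genes. None of the 7 calls held in every alternative, 7 being lost without the filter and 6 leaving out mouse 5. Cebpb, the C/EBP factor of activated neutrophils, rose by 1.47 ± 0.32 on the log2 scale (adjusted p = 0.00132), with adjusted p 0.0911 and 0.0554 leaving out mouse 4 and 5. Spi1, which encodes PU.1, had 0.58 ± 0.29 (adjusted p = 0.146). Of the stefins, a family of protease inhibitors whose reads can be shared, Gm5483 rose by 1.71 ± 0.36 on the log2 scale (adjusted p = 0.00107), with adjusted p 0.176 with DESeq2, 0.0734 without the filter, 0.76 with thinned cells. BC100530, of the same family, had 634, 3386 and 697 CPM in male late cells, mouse 2 alone being high, and -0.13 ± 0.37 (adjusted p = 0.836) in female mice. Of 18 listed antigen presentation genes 6 passed and 1 was called, as higher, near the 12.1% of all tested genes. This was H2-K1, of MHC class I, at 0.95 ± 0.35 (adjusted p = 0.0489, with 0.099, 0.467 and 0.143 leaving out mouse 4, 5 and 6 and 0.154 with the mouse as a block), and the MHC class II genes Cd74, H2-Aa and H2-Eb1 had 0.62 ± 0.30 (adjusted p = 0.139), 0.48 ± 0.51 (adjusted p = 0.545) and 0.49 ± 0.60 (adjusted p = 0.601). Of 23 listed ageing and trafficking genes 10 passed, of which Selplg rose and Itgam, Cd177 and Ly6c2 fell, so that 1 was higher and 3 lower, against 12.1% and 9.90% of all tested genes. The 3 would not have passed the filter in the late sums alone. Selplg, the ligand of selectins, had adjusted p 0.193, 0.312 and 0.0947 leaving out mouse 4, 5 and 6 and 0.0717 with the mouse as a block, and Itgam and Ly6c2 had 0.254 and 0.0758 leaving out mouse 5. Cd3d fell by 1.54 on the log2 scale (SE 0.44, adjusted p = 0.0113), with adjusted p 0.0645 and 0.0838 leaving out mouse 4 and 5, and passed the filter only through the Ly6g-side sums. The gene encodes the T cell receptor chain CD3δ, yet it was found in 77.8% of Ly6g-side neutrophils and 81.6% of precursors, while Cd3e, Cd3g and Trbc2 were at 0 in late cells. With no filter on low counts, the adjusted p of Cebpb, Selplg and H2-K1 was 0.525, 0.755 and 0.763. With DESeq2 the adjusted p of Selplg and H2-K1 was 0.134 and 0.262.

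By size alone, the male sums named 20 genes, 10 in each direction, some of them members of the lists above. They are a description. The highest were Csf1 (3.72), Il1b (3.50), Gm13822 (3.40), Fgl2 (3.27), Pmaip1 (3.16), Dusp2 (2.94), Cxcl3 (2.86), Rsad2 (2.85), Gngt2 (2.82) and Oasl1 (2.68) on the log2 scale. Csf1, the growth factor of macrophages, had 146, 112 and 99.0 CPM in late cells and 7.87, 10.1 and 8.06 CPM in Ly6g-side cells. In unscaled CPM it had 140.0 ± 27.7 in late cells, 2.60 ± 0.451 in the macrophage gate and at most 14.4 in the other gates. It was found in 19.0% of late cells. Gm13822 is annotated as antisense and overlaps the start of Oasl1 on the other strand (chr5:114917318-114923277 and chr5:114923240-114937915), so both are uncertain. Of these 10, Il1b and Dusp2 passed the filter in female mice. Dusp2, a phosphatase of activated leukocytes, had 10 UMIs in female late and 8 in Ly6g-side cells. It depended on the late sums to pass the filter, and without the filter its adjusted p was 0.0477.

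The 10 lowest in male mice were Adss, Ngp, Chil3, 4930438A08Rik, Serpinb1a, Golim4, Ifitm6, Adpgk, Dok2 and Zmpste24. Adss, of purine synthesis, had 0 UMIs in all late cells and 112 in Ly6g-side cells, which is at least 7.86-fold lower against a floor of 3 counts over the group. The late and Ly6g-side UMIs of 4930438A08Rik were 1 against 154 (counting interval of the fold 5.74 to 1289) and those of Dok2 were 2 against 175 (5.03 to 153). Golim4 had 3 against 255 (6.06 to 87.4) and Zmpste24 had 3 against 237 (5.62 to 81.3). These UMIs were too few for a single fold. Adpgk, an ADP-dependent glucokinase, fell in female mice to 2 UMIs in late cells against 275 UMIs (adjusted p = 5.81e-05), and passed the filter only through the Ly6g-side sums.

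Late cells also varied among themselves with their distance from the cut, which is a description, as the rule set that distance. From the 34 cells nearest to the cut through 54 cells in between to the 28 farthest, Il1b went in the pooled cells from 2962 to 6561 and 9954 unscaled CPM, and Isg15 from 294 to 716 and 1134 CPM. Retnlg went the other way, from 28286 to 13014 and 6923 CPM. Cxcl2 (13845, 15658 and 13285 CPM) and Cxcr2 (708, 764 and 788 CPM) stayed level. Median depth was 3175, 2723 and 2834 UMIs per cell in the 3 ranges.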

How the data were processed

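Raw UMI counts were taken as the authors deposited them, per the file headers from Cell Ranger 3.1.0 and per the labels on build mm10, without normalization: a matrix of male cells that the authors had filtered in Seurat and assigned to hashtags, and a matrix of 4395 barcodes with hashtag counts. Columns of per-sample values left unused numbered 0. Female cells came from the larger matrix by the thresholds in the study's methods (200 to 5000 genes, mitochondrial UMIs below 5%) and by HTODemux (Seurat 5.3.0), run under 4 settings of filter order and CLR margin, of which the one used gave exactly the deposited male cells. Doublets between mice were removed by HTODemux. Scrublet (scanpy 1.11.5) marked 9 male and 1 female cells (0.267% of the cells assigned to a mouse), too few to count as a working doublet call, so doublets within a mouse remain, and leaving out the marked cells is reported as an alternative.

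The 116 members, the gene lists and the tests were chosen with earlier results of these data known. UMIs were summed per mouse and stage, normalized by TMM, filtered with filterByExpr and fitted with edgeR 4.0.16 (R 4.3.3; glmQLFit, glmQLFTest, Benjamini-Hochberg adjustment, 0.05), without a mouse term. The 15 genes of the rule and the label markers Clec4d, Cxcr2 and Il1f9 were not tested. The plan had a test in male mice as well. After the results were seen, the male fit was kept as a description because the rule used that contrast, and adjusted p-values are printed for female mice. Sums of the same mouse are paired by animal. Their deviations from the group means correlated at 0.162, 0.0159 and 0.19 in male and -0.0682, 0.0951 and -0.0193 in female mice. Named genes are the 10 with the largest fold in each direction past the threshold in male mice, the same way in each mouse and with at least 30 UMIs in the higher stage, with the rule genes, markers and list members. The alternatives were a mouse block, DESeq2 1.42.0, upper quartile scaling, no filter, each mouse left out, cells thinned to 1000 UMIs, a margin of 0.5, an S100 share of 10% (and of 3% for the share of late cells), no Scrublet doublets, no C1q cells and scaling without rule genes. Per-cell tests used scipy 1.17.1. P-values measure the spread between hashtags, each taken as 1 mouse. Intervals are exact 95% Clopper-Pearson intervals, a count of 0 is given a limit of 3 counts, and both cover counting error only. The scripts were tested on simulated data. Gates for other cells were 3 (B, T and NK cells, monocytes) or 10 (macrophages) UMIs of their markers. Gene positions are GENCODE M21 (GRCm38). Some listed genes are not reported here.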

Additional observations from a re-analysis of the deposited data

Results flagged for a closer look

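In 1 of 14 sets of 6 mice, the mitochondrial percentage of UMIs in late cells, the highest mouse stood apart from the others: the median was 0.477% in mouse 6, against 0.131% to 0.204% in the other 5 mice. Mouse 6 had 2 late cells. Chance flags about 1 in 20 such sets.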

How the results depend on the processing

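In male mice the counts of 374 genes higher and 376 lower, of 2356 tested, became 112 and 119 with cells thinned to 1000 UMIs, where 677 genes were tested. They lay between 186 and 313 higher and 184 and 284 lower when a mouse was left out, lowest without mouse 3. In female mice 111 higher and 91 lower became 17 and 19 with thinned cells, where 154 genes were tested, 62 higher and 91 lower with DESeq2, and 27 higher and 163 lower without the filter, where 9228 genes were tested. Scaling without the rule genes gave 79 higher and 161 lower, and leaving out a mouse gave 42 to 88 higher and 31 to 79 lower, lowest without mouse 5. The mouse as a replicate block gave 404 higher and 439 lower in male and 82 higher and 77 lower in female mice, and of 78 named genes called in female mice 12 lost their call under it. Of these 78 genes, 28 held their call in every alternative in which they were tested, and 18 of 77, 40 of 76 and 15 of 77 tested lost it without mouse 4, 5 and 6. The median log2 fold change of all female genes was -0.13, -0.37 with DESeq2 and -1.38 without the filter. For hashtag UMIs per cell, the difference reversed to -365 with means per mouse in place of medians. For genes per cell at 1000 UMIs, the difference was 88.0 to 93.6 when a mouse was left out, with p = 0.0625, the smallest that 5 mice allow in the exact test. In male mice BC100530, at 0.32, lay between -0.86 and 0.74 when a mouse was left out, reversed without mouse 2, and Cd74 reversed to 0.52 without Scrublet doublets and 0.51 without C1q cells. The causes were not tested. The share of late cells kept its direction in each alternative. The female test rests on 21 late cells.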
